A study of Mus musculus with 12 samples.

Results

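Sox genes encode transcription factors that bind DNA through a domain shared with Sry, the HMG box. Expression of 10 of them was followed through 3 preparations of mouse dorsal root ganglia (DRG): Sox2, Sox4, Sox5, Sox6, Sox8, Sox9, Sox10, Sox11, Sox17 and Sox18. The members were taken by gene symbol, and each symbol matched a row of the deposited table, so that they make up 10 of its 24490 genes. The rule itself uses no measured value, although earlier results of these data were known when the genes were picked.

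RNA was sequenced from 12 samples of adult C57Bl/6 mice, with 4 samples each of intact DRG, acutely dissociated, unsorted DRG and MACS-sorted DRG. An intact sample held the whole ganglia of 1 mouse, a dissociated sample those of 2 mice and a MACS-sorted sample those of 8 mice. Dissociation used dispase, collagenase and DNAse for 30 min at 37 °C, followed by trituration and filtering. For magnetic-activated cell sorting (MACS), antibodies against non-neuronal cells were attached to magnetic beads and the cells that passed the column were collected. MACS-sorted cells had therefore been through dissociation as well. Each group had its own number of pooled mice, so an effect of the preparation cannot be told apart from one of pooling. Sorting was by exclusion, so a MACS-sorted sample holds whatever the antibodies left unbound, and the antigens are not given in the sources used here.

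In the peripheral nervous system, Sox10 specifies and maintains the glial lineage, the satellite glia around sensory cell bodies and the Schwann cells along their axons, together with its close relatives Sox8 and Sox9, the SoxE group. Sox2, of the SoxB1 group, marks progenitors and immature or satellite glia. Sox4 and Sox11, the SoxC group, act in differentiating neurons, Sox5 and Sox6, the SoxD group, lack an activation domain and often work beside SoxE proteins, and Sox17 and Sox18, the SoxF group, act in endothelial cells of vessels and lymphatics.

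The 250 bases before the annotated start are shown for 2 members that were lower and 2 that were higher in MACS-sorted than in dissociated DRG. They are RefSeq sequences of GRCm38.p6, the assembly of mm10, read 5′ to 3′ on the strand of the gene, and the table used here had an entry for 6 of the 10 members. Capitals mark CCAAT on either strand, so ATTGG is its form on the opposite strand.
Sox2 (chr3:34649745-34649994, plus strand): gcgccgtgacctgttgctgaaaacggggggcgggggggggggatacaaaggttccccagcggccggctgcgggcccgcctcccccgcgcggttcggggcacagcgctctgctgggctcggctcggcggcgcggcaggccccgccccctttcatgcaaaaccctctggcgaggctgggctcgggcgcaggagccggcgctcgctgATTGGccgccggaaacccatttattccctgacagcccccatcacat
Sox8 (chr17:25570687-25570936, minus strand): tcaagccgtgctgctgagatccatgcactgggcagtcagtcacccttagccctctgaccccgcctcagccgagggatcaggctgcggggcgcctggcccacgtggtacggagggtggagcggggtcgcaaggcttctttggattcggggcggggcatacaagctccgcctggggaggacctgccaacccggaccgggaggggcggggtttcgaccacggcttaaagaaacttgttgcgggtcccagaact
Sox4 (chr13:28953700-28953949, minus strand): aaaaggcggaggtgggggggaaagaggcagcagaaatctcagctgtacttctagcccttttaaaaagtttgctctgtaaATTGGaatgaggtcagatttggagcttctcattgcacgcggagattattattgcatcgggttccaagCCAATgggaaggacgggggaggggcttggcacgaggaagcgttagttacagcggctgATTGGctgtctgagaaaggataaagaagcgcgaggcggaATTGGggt
Sox11 (chr12:27342719-27342968, minus strand): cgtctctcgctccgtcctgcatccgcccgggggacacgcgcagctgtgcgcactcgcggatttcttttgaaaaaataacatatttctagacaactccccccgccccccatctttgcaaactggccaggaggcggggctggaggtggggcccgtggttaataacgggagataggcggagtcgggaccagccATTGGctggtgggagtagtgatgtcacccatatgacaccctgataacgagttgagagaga
Searched on both strands, the Sox4 window held CCAAT 4 times, those of Sox2 and Sox11 held it 1 time each, and that of Sox8 held none. Of 32851 windows of the same length, 33.8% held CCAAT. The core of a GC box, GGGCGG, stood 2 times in each of the Sox2, Sox8 and Sox11 windows and 0 times in that of Sox4, against 32.7% of all windows with at least 1. Neither ACAAT, a core to which Sox proteins bind and which 27.7% of all windows hold, nor TATAAA, held by 12.4%, was found in any of the 4. The Sox2 window had a GC content of 72.0% and 27 CG dinucleotides, the Sox8 window 65.6% and 18, the Sox11 window 58.0% and 17, and the Sox4 window 50.8% and 11, where the median window had 52.4% and 6. Both genes shown that were lower after sorting thus had more GC and more CG dinucleotides in this window than both that were higher, while the motif counts overlapped, which describes 4 windows and tests nothing. Sox5, which was also lower after sorting, had an entry too, but its window was not counted.

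Expression is given in FPKM, fragments scaled by transcript length and by the mapped total of the sample, as the authors deposited it, so that levels can be set side by side between genes. By an estimate from the smallest steps between low FPKM values, the samples held 13600000 to 19300000 fragments. Some libraries stood apart. MACS-sorted replicates 3 and 4 held red blood cell genes at summed levels of 12541 and 15370 FPKM, against 1681 and 2534 FPKM in replicates 1 and 2 and 112 to 737 FPKM elsewhere. Intact replicate 1 held skeletal muscle genes at 2921 FPKM, against 15.7 to 64.2 FPKM in the other intact samples, and also had the highest sums of fibroblast, macrophage and Schwann cell genes of its group. Immediate early and heat shock genes summed to 209 and 212 FPKM in dissociated replicates 1 and 2 and to 599 and 886 FPKM in replicates 3 and 4. Dissociated replicates 1 and 2 were also unusually alike, with mean squared differences of 2.29 times the counting noise, against 5.87 times or more in every other pair of a group. They were counted as 2 samples, as labelled, although whether they come from separate mice cannot be told from these values. With their mean taken as 1 sample, as many members passed the test in each direction. The labels name preparations, and marker genes described what the MACS-sorted samples held. The 8 pan-neuronal genes summed to 3815 to 4902 FPKM in MACS-sorted DRG, against 4223 to 4554 FPKM in dissociated DRG. In MACS-sorted DRG the 7 macrophage genes summed to 0.498 to 2.38 FPKM, but the 11 endothelial genes to 36.3 to 129 FPKM.

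Sox10 led the list in intact and dissociated DRG, and Sox4 led it in MACS-sorted DRG. In intact DRG the order of mean levels was Sox10, Sox4, Sox2, Sox8, Sox11, Sox18, Sox6, Sox9, Sox17 and Sox5. The ranges of the samples did not overlap between Sox10 and Sox4, Sox4 and Sox2, Sox11 and Sox18, or Sox17 and Sox5, and the other neighbours in that order were not separated by their spread. In dissociated DRG the order was Sox10, Sox4, Sox2, Sox11, Sox18, Sox17, Sox8, Sox6, Sox5 and Sox9, with no overlap between Sox10 and Sox4, Sox2 and Sox11, Sox6 and Sox5, or Sox5 and Sox9. In MACS-sorted DRG the order was Sox4, Sox11, Sox18, Sox17, Sox6, Sox10, Sox8, Sox5, Sox2 and Sox9, and no neighbours other than Sox4 and Sox11 were separated.

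Summed over the 10 genes, expression was 39.1 to 46.7 FPKM in intact, 46.3 to 55.8 FPKM in dissociated and 22.1 to 34.4 FPKM in MACS-sorted samples. Sox10 took a share of 54.0% ± 3.9 (SD, n = 4) of that sum in intact and 50.7% ± 1.5 (SD, n = 4) in dissociated DRG, but 2.5% ± 2.9 (SD, n = 4) in MACS-sorted DRG. Sox4 took 15.5% ± 0.7, 17.7% ± 2.5 and 62.1% ± 12.4 (SD, n = 4 each) in the same order. The share of Sox4 in MACS-sorted replicates 1 to 4 was 66.0%, 73.3%, 64.9% and 44.4%. Replicate 4 stood below the others, and it was also the MACS-sorted sample with the highest level of 7 of the 10 genes and the lowest of Sox4 and Sox5.

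**Figure D1:**
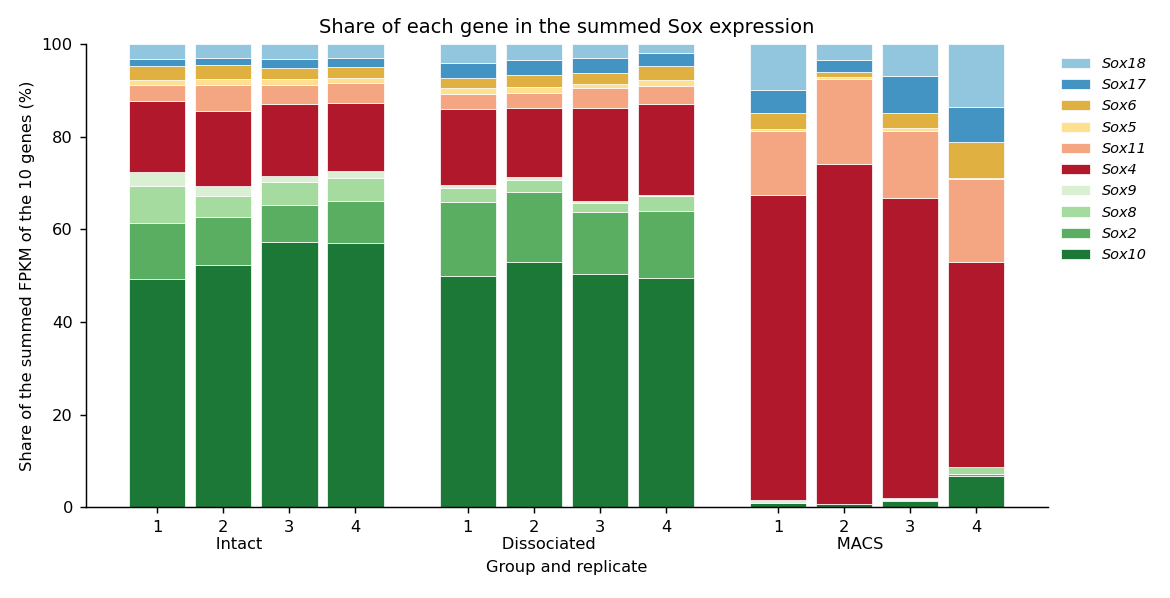
Each bar is 1 sample, by group and replicate, and its segments are the shares (%) of the 10 genes in their summed FPKM. Sox10 and Sox2 in dark and mid green fill most of the intact and dissociated bars, and Sox4 in red fills 44.4% to 73.3% of the MACS-sorted bars.

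The comparison of MACS-sorted with dissociated DRG asks how expression differs after sorting. Sorting did not lower the genes of all non-neuronal cells, since red blood cell genes rose. For endothelial genes no fall passed the test with all samples. That does not exclude one, since their sums ran from 36.3 to 129 FPKM in MACS-sorted samples. Genes of large-diameter neurons fell. Two-sided limma tests were run on log2(FPKM + 0.1) for 12038 genes, those that averaged 1 FPKM or more in the 8 samples, and p-values were adjusted over all of them by Benjamini-Hochberg. The log2-fold changes below are on that scale, which understates the change of low genes, and percentages compare group means of FPKM. Genes were called when the adjusted p was under 0.05, the log2 ratio of means was beyond 0.5 and the higher mean was above 5 FPKM. Of the 7 members tested, 1 was called higher (Sox4) and 2 were called lower (Sox2 and Sox10), where 8.15% and 12.5% of all genes tested were called. By the adjusted p alone, 2 members were higher and 2 lower, against 18.8% and 27.7% of all genes tested. Sox5, Sox8 and Sox9 were under the filter. In a fit without it, in which 13.6% and 24.7% of 17657 genes were higher and lower, they were lower too, so that 2 of all 10 members were higher, 5 lower and 3 neither. With so few members, nothing is read from these shares against the background, and the description rests on the values of each gene.

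Sox10 (chr15:79154913-79164490, minus strand of mm10) was the member with the highest level in unsorted tissue. Its expression was 23.0, 20.4, 24.1 and 25.7 FPKM in intact replicates 1 to 4, and 27.9, 28.7, 23.3 and 24.5 FPKM in dissociated replicates 1 to 4. In MACS-sorted replicates 1 to 4 it was 0.258, 0.149, 0.361 and 2.32 FPKM, which correspond to an estimated 9, 6, 16 and 86 fragments. All MACS-sorted samples lay below all others, and replicate 4 lay well above the other MACS-sorted samples. The mean fell from 26.1 ± 2.6 to 0.772 ± 1.04 FPKM (SD, n = 4 each), to 2.96% of the dissociated level. By limma the log2-fold change came to −5.54, with a standard error of 0.59 and an adjusted p of 5.4e-05. Without MACS-sorted replicate 4 the mean was 0.256 FPKM, or 0.981% of the dissociated level. In these bulk samples, fewer cells of a type and less RNA per cell cannot be told apart.

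Sox2 (chr3:34650005-34652460, plus strand, a gene of a single exon) fell as well. It was 5.63, 4.06, 3.40 and 4.03 FPKM in intact samples and 8.86, 8.20, 6.18 and 7.25 FPKM in dissociated samples. In MACS-sorted replicates 1 and 2 it was listed at 0, and in replicates 3 and 4 at 0.0251 and 0.178 FPKM, an estimated 1 and 6 fragments. The groups did not overlap, as for 27.8% of genes tested in this direction. The mean fell to 0.667% of the dissociated level (log2-fold change −5.81, standard error 0.35, adjusted p = 2.2e-06 from limma). Without replicate 4 it was at 0.110%. Sox2 lies inside the long non-coding gene Sox2ot on the same strand, whose level was 2.86 to 4.19 FPKM in intact and dissociated samples and 0 to 0.194 FPKM in MACS-sorted samples, so reads in the shared stretch could have gone to either.

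Sox8 and Sox9 were lower members of the SoxE group in unsorted tissue. Sox8 (chr17:25565893-25570686, minus strand) was 1.71, 1.47, 0.950 and 1.50 FPKM in dissociated samples, and 0, 0, 0.0810 and 0.455 FPKM in MACS-sorted samples, with an estimated 4 and 19 fragments in the last 2. Sox9 (chr11:112782210-112787757, plus strand) was 0.328, 0.347, 0.240 and 0.141 FPKM in dissociated samples, and 0.128, 0, 0.0144 and 0 FPKM in MACS-sorted samples. The MACS-sorted samples lay below the dissociated samples for both genes, and the highest one was replicate 4 for Sox8 but replicate 1 for Sox9. In the fit without a filter, Sox8 fell by 3.05 on the log2 scale (standard error 0.53, adjusted p = 0.0016 from limma) to 9.53% of the dissociated mean, and Sox9 fell by 1.48 (standard error 0.32, adjusted p = 0.0059) to 13.5%. A single sample set both percentages, since the Sox8 level was 1.92% without replicate 4 and the Sox9 level 1.81% without replicate 1. Sox8 overlaps the antisense gene 2810468N07Rik, at 2.63 to 3.40 FPKM in dissociated and 0.270 to 0.816 FPKM in MACS-sorted samples. The library kit keeps the strand, but whether the authors' estimate used it is not given in the sources used here, and without it the reads of this pair cannot be told apart.

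**Figure D2:**
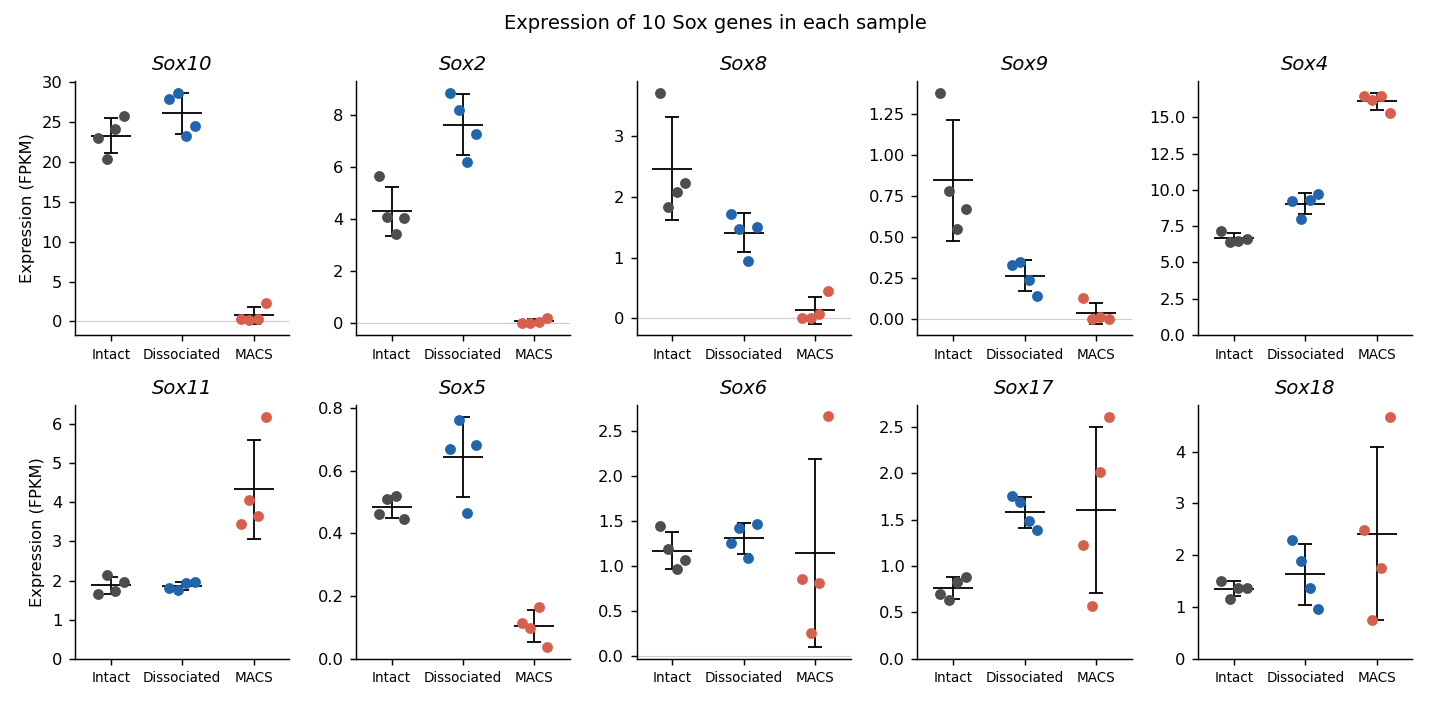
Points are FPKM in each of the 4 samples of a group, in replicate order from left to right, and the black bar and whiskers are the mean ± SD; each panel has its own scale from 0. Sox10, Sox2, Sox8 and Sox9 in the upper row are near 0 in MACS-sorted samples, Sox4 and Sox11 are highest there, and Sox6, Sox17 and Sox18 spread most there.

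How far these members fell can be set beside genes of satellite glia. All 6 satellite glia genes fell after sorting, with a median of 1.15% of the dissociated level, which was 0.611% without MACS-sorted replicate 4. Kcnj10, the inward rectifier channel of satellite glia, was at 0.580%, Ednrb at 0.668%, the glutamate transporter Slc1a3 at 0.754% and the fatty acid binding protein Fabp7 at 1.54%. Sox2 at 0.667% stood among these 4 genes, and Sox10 at 2.96% above them. Without replicate 4, Ednrb and Fabp7 were at 0.363% and 0.679%, with Sox2 below all 4 and Sox10 still above them. With all samples, both Sox genes were below Gja1, the connexin 43 gene, at 22.6% and Glul, glutamine synthetase, at 67.0%. Because of Glul, the summed level of the list was still 84.5 to 129 FPKM in MACS-sorted samples, against 417 to 574 FPKM in dissociated samples.

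Known targets of Sox10 in peripheral glia fell in 11 of 12 cases, with a median of 7.25% of the dissociated level. The receptor Erbb3 was at 2.52% and the gap junction gene Gjc3 at 2.92%, close to Sox10 itself. Pmp22 and the calcium-binding S100b fell to 52.5% and 13.8%, Mbp at 55.6% did not pass the test (adjusted p = 0.077 from limma), and Cntf was listed at 0 in every MACS-sorted sample. Over all genes tested, the median log2-fold change was −0.04, against −5.85 for satellite glia and −4.26 for the Sox10 targets. All 6 genes of myelinating Schwann cells fell, with a median of 5.98% of the dissociated level. MACS-sorted replicate 4 raised these medians, which without it were 2.87% for the Sox10 targets and 3.56% for the Schwann cell genes. Without it, Erbb3 was at 0.711% and Gjc3 at 1.13%, and Mbp at 35.3% passed the test as well (adjusted p = 0.0055 from limma), so that all 12 targets fell.

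Within samples, the log2 ratio of Sox10 to its targets, taken as the mean of their log2 values, was lower after sorting by 1.53, with no overlap between groups (exact two-sided permutation test, p = 0.0286, the smallest that 4 against 4 samples allow). The ratio of Sox10 to the satellite glia genes differed by −0.80, with overlapping groups (exact p = 0.143). For the ratio of Sox2 to Sox10 the difference was −0.27 (exact p = 0.657), and it turned to 1.05 with a pseudocount of 1 in place of 0.1, since Sox2 itself was listed at 0 in 2 samples. A total of 45 such ratio tests was made, and after Benjamini-Hochberg adjustment over them the smallest value was 0.0536, so none passed 0.05. With dissociated replicates 1 and 2 averaged, the smallest adjusted value over 30 such tests was 0.107. With a pseudocount of 1, which gives low values less weight, 30 of the 45 passed at an adjusted p of 0.0429, among them the ratios of Sox10 to its targets (−1.11) and of Sox2 to Sox10 (1.05). All 30 stood at the smallest p that 4 against 4 samples allow, so the adjusted value only reflects how many ratios reached it. In MACS-sorted DRG, Sox2 in all samples and Sox10 in replicates 1 to 3 lay under this pseudocount, which therefore sets much of their ratio.

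Sox4 and Sox11 moved the other way. Sox4 (chr13:28950730-28953682, minus strand, a single exon) was 7.16, 6.39, 6.49 and 6.64 FPKM in intact samples, 9.24, 7.98, 9.27 and 9.71 FPKM in dissociated samples and 16.5, 16.2, 16.4 and 15.3 FPKM in MACS-sorted samples. The 3 groups did not overlap, and MACS-sorted samples differed little among themselves (16.1 ± 0.57 FPKM, SD, n = 4). Sox4 rose 1.78-fold with sorting (log2-fold change 0.83, standard error 0.079, adjusted p = 2.9e-05 from limma), and leaving out any sample kept the estimate between 0.77 and 0.86. A long non-coding gene, Gm26735, overlaps Sox4 on the opposite strand.

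Sox11 (chr12:27334268-27342718, minus strand, a single exon) was 1.80, 1.75, 1.95 and 1.97 FPKM in dissociated samples and 3.44, 4.07, 3.65 and 6.19 FPKM in MACS-sorted samples. All MACS-sorted samples lay above all dissociated samples, as for 18.4% of genes tested, with replicate 4 the highest. The mean rose 2.32-fold to 4.34 ± 1.26 FPKM (SD, n = 4; log2-fold change 1.14, standard error 0.18, adjusted p = 7.1e-04 from limma). It was not called because that mean is under 5 FPKM. Without replicate 4, the rise was 1.99-fold. The ratio of Sox11 to Sox4 within samples did not separate the groups (difference 0.31 on the log2 scale, exact p = 0.143).

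Other genes can be set beside these rises. Of 7 genes of the response to axotomy, the cutting of axons, 5 reached the filter, of which 2 rose with sorting and 0 fell. The part of that response in the Sox4 and Sox11 values was not tested. Of the 8 pan-neuronal genes, 3 rose and 2 fell with sorting, and the median level was 118% of that in dissociated DRG. Without MACS-sorted replicate 4, 5 rose. Of the 9 nociceptor genes, 7 rose and 1 fell. The sodium channel genes Scn10a and Scn11a rose to 165% and 206%, and Calca at 92.3% did not pass the test. All 5 genes of large-diameter neurons fell, with a median of 13.7%. Among 11 other transcription factor genes of sensory neurons, 7 rose and 4 fell. Levels in that list ran from 10.8% to 237%. Without MACS-sorted replicate 4, Pou4f3, Runx3 and Shox2 were at 44.5%, 12.3% and 9.46%. Sox4 at 178% and Sox11 at 232% stood in the range of the 7 that rose. That range went from Isl1 at 134% to Runx1, the factor of non-peptidergic nociceptors, at 237%. The log2 ratio of Sox4 to the pan-neuronal genes was higher after sorting by 0.70 and that of Sox11 by 1.01, with no overlap between groups for either (exact p = 0.0286 each, adjusted 0.0536).

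Of the SoxD genes, Sox5 passed the test with sorting and Sox6 did not, and a difference between them was not tested. Sox5 (chr6:143828425-144209568, minus strand) was 0.669, 0.762, 0.464 and 0.682 FPKM in dissociated samples and 0.115, 0.0997, 0.165 and 0.0390 FPKM in MACS-sorted samples. The groups did not overlap, and the mean fell to 16.2% (log2-fold change −1.88 in the fit without a filter, standard error 0.26, adjusted p = 4.5e-04 from limma). Sox6 (chr7:115470872-116038744, minus strand) was 1.26, 1.42, 1.10 and 1.47 FPKM in dissociated samples and 0.852, 0.258, 0.813 and 2.67 FPKM in MACS-sorted samples. For Sox6 the groups overlapped through replicate 4 alone.

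The log2-fold change of Sox6 with sorting was −0.54 (95% confidence interval −1.70 to 0.62, adjusted p = 0.42 from limma), and it was 0.09 after quantile normalization. Without replicate 4 the mean was 48.8% of the dissociated level and the difference passed the test (log2-fold change −1.05, adjusted p = 0.037 from limma). Replicate 4 also had the highest sums of endothelial (129 FPKM), red blood cell (15370 FPKM), fibroblast (32.4 FPKM) and myelinating Schwann cell (26.3 FPKM) genes among the MACS-sorted samples, and the part of those cells in the Sox6 value was not tested. Antisense genes overlap both Sox5 and Sox6. Of 7 genes of chondrocytes, where Sox5, Sox6 and Sox9 act together, 2 reached the filter and both fell with sorting, and the list summed to 14.5 to 17.3 FPKM in dissociated and 2.15 to 3.79 FPKM in MACS-sorted samples. Those sums rest mostly on the 2 genes, Comp and Hapln1, at means of 5.20 and 10.0 FPKM in dissociated DRG. Col2a1 and Acan averaged only 0.289 and 0.226 FPKM there, and Matn1 was listed at 0, so the list shows little of chondrocytes.

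For the endothelial members no change with sorting was detected. Sox17 (chr1:4490928-4497354, minus strand) was 1.75, 1.69, 1.49 and 1.38 FPKM in dissociated samples and 1.22, 0.571, 2.01 and 2.61 FPKM in MACS-sorted samples. Sox18 (chr2:181669837-181671640, minus strand) was 2.30, 1.90, 1.38 and 0.963 FPKM in dissociated samples and 2.48, 0.745, 1.76 and 4.67 FPKM in MACS-sorted samples. For both genes MACS-sorted replicate 2 was the lowest and replicate 4 the highest of all 8 samples, and the dissociated samples lay between them. The log2-fold change was −0.16 for Sox17 (95% confidence interval −1.02 to 0.71, adjusted p = 0.77 from limma) and 0.34 for Sox18 (−0.74 to 1.42, adjusted p = 0.59). Each interval holds falls as well as rises, and the sign was not stable, with Sox17 at 0.40 after quantile normalization and at 0.23 without replicate 2 and Sox18 at −0.05 without replicate 4.

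For other endothelial genes no change with sorting passed the test either, with 0 of 11 higher and 0 lower by limma, and 1 lower at an unadjusted p under 0.05. Their levels were 69.2% to 120% of the dissociated level, with a median of 80.0%. They include Pecam1 and Cdh5, adhesion genes of endothelial junctions, at 83.5% and 81.9%. Their summed level in MACS-sorted replicates 1 to 4 was 90.8, 36.3, 82.4 and 129 FPKM, lowest and highest in the same replicates as Sox17 and Sox18, against 86.6 to 106 FPKM in dissociated samples. With 1 sample left out, 0 to 1 of these genes were higher and 0 to 1 lower, and the median was 67.3% to 98.1%. Without MACS-sorted replicate 4, levels ran from 55.5% (Tek) to 94.8% (Cldn5), and Egfl7 fell to 72.3% (adjusted p = 0.0018 from limma). The log2 ratio of Sox17 to the endothelial genes was 0.30 higher after sorting, with overlap (exact p = 0.143), and that of Sox18 was 0.80 higher, without overlap (exact p = 0.0286, adjusted 0.0536).

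**Figure D3:**
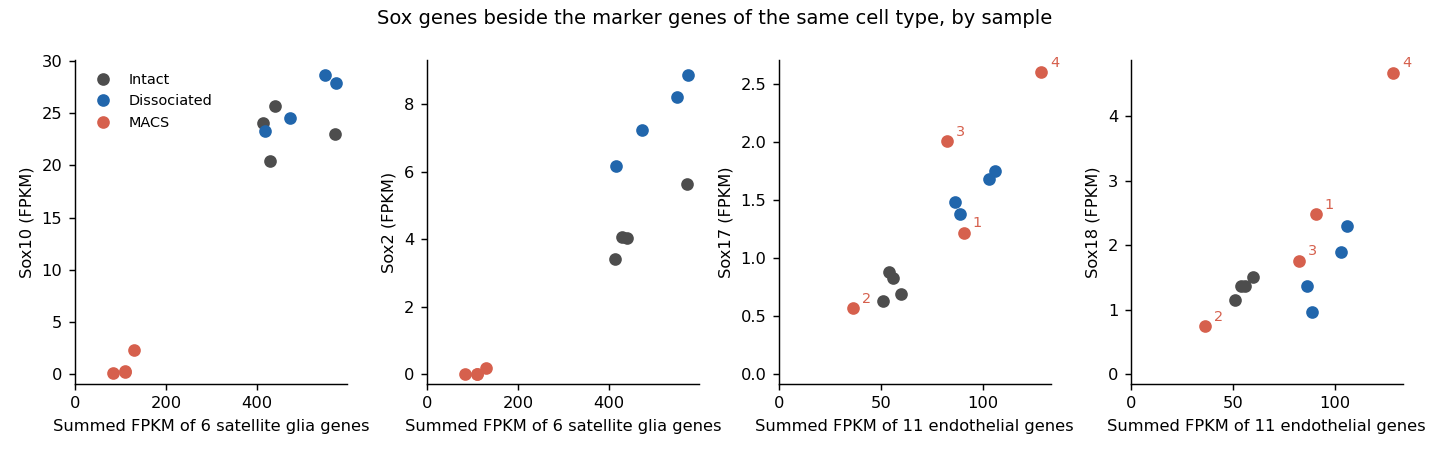
Each point is 1 sample, coloured by group, with the summed FPKM of a list of marker genes on the horizontal axis and the FPKM of a Sox gene on the vertical axis; numbers give the MACS-sorted replicates. Sox10 and Sox2 drop with the satellite glia genes, whereas Sox17 and Sox18 in MACS-sorted replicates span the range of the endothelial sum, from 36.3 to 129 FPKM.

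The comparison of dissociated with intact DRG asks what the dissociation itself changes. It shares the dissociated samples with the comparison above, so the results of both are not independent. Of the 8 members tested, 1 was called higher and 0 lower, where 4.29% and 2.76% of 12392 genes were. By the adjusted p alone, 3 were higher (Sox2, Sox4 and Sox17) and 0 lower, against 14.8% and 7.79% of all genes tested. At an unadjusted p under 0.05, 1 was lower (Sox8).

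Sox2 rose 1.78-fold, from 4.28 ± 0.95 to 7.62 ± 1.17 FPKM (SD, n = 4 each), and its groups did not overlap, as for 20.8% of genes tested in this direction (log2-fold change 0.83, standard error 0.16, adjusted p = 0.010 from limma). Sox10 did not pass the test, at 23.3 ± 2.2 and 26.1 ± 2.6 FPKM (log2-fold change 0.16, 95% confidence interval −0.06 to 0.38, adjusted p = 0.26). The log2 ratio of Sox2 to Sox10 was higher in every dissociated than in every intact sample, by 0.67 in the mean (exact p = 0.0286, adjusted 0.0536). Of the satellite glia genes, 4 of 6 rose, Kcnj10 to 210% and Ednrb to 227%, while Fabp7 at 92.4% and Glul at 112% did not pass the test. Of the Sox10 targets, 1 rose (Erbb3, to 129%) and 2 fell (Gjb1 to 57.7% and Cntf to 44.0%), and with 1 sample left out 0 to 4 rose and 1 to 3 fell.

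The other SoxE members had lower values in dissociated than in intact samples. Sox8 was 3.71, 1.84, 2.08 and 2.23 FPKM in intact samples, all above the dissociated samples, as for 1487 of the 12392 genes tested, and its mean was 57.1% of the intact level after dissociation. This did not pass the test (log2-fold change −0.74, standard error 0.24, adjusted p = 0.057 from limma). Sox9 was 1.38, 0.779, 0.548 and 0.671 FPKM in intact samples, again all above the dissociated samples. In the fit without a filter, Sox9 fell to 31.3% of the intact level (log2-fold change −1.34, standard error 0.30, adjusted p = 0.021 from limma), and 9.55% and 6.38% of all genes were higher and lower in that fit. The Sox9 call was lost without dissociated replicate 3 or 4 (adjusted p = 0.055 and 0.054). The log2 ratios of Sox8 and Sox9 to Sox10 differed by −0.90 and −1.50, with no overlap between groups (exact p = 0.0286 each, adjusted 0.0536). Intact replicate 1, which held muscle genes, had the highest value of both Sox8 and Sox9, and without it their levels after dissociation were 68.7% and 39.6%. Fibroblast genes fell in 6 of 7 cases and macrophage genes in 5 of 7 in this comparison, or in 3 to 6 and 3 to 4 with 1 sample left out, and their part in the Sox8 and Sox9 values was not tested.

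Sox4 rose 1.36-fold (log2-fold change 0.43, standard error 0.081, adjusted p = 0.0082 from limma) and stayed under the limit of 0.5 for a call. Sox11 did not differ detectably, at 1.66, 2.13, 1.75 and 1.96 FPKM in intact samples (log2-fold change −0.00, 95% confidence interval −0.27 to 0.26, adjusted p = 0.99), so that the ratio of Sox11 to Sox4 was lower in every dissociated than in every intact sample, by 0.43 on the log2 scale (exact p = 0.0286, adjusted 0.0536). Of the 8 pan-neuronal genes, 4 rose by limma and 0 fell, and at an unadjusted p under 0.05 6 were higher and 0 lower. With 1 sample left out, 1 to 6 rose, the 6 without intact replicate 1. Sox5 at 133% and Sox6 at 112% of the intact level did not pass the test (adjusted p = 0.21 without a filter and 0.53).

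Sox17 rose 2.07-fold, from 0.696, 0.633, 0.833 and 0.887 FPKM in intact samples (log2-fold change 0.97, standard error 0.17, adjusted p = 0.0064 from limma). Endothelial genes rose in 9 of 11 cases, by a median of 0.97 on the log2 scale, against 0.01 over all genes tested, and the ratio of Sox17 to them differed by 0.03 (exact p = 0.771). Sox18 did not pass the test. It was 1.51, 1.16, 1.37 and 1.37 FPKM in intact samples, inside the range of the dissociated samples (log2-fold change 0.19, 95% confidence interval −0.36 to 0.75, adjusted p = 0.59), and its ratio to the endothelial genes was lower by 0.74, with no overlap between groups (exact p = 0.0286, adjusted 0.0536). In a fit that shares the spread over all 12 samples, the rises of Sox2 and Sox17 no longer passed (adjusted p = 0.085 and 0.084 from limma), and that of Sox4 did. All 9 immediate early and heat shock genes rose with dissociation. In dissociated replicates 3 and 4, where these genes were highest, Sox2 was 6.18 and 7.25 FPKM and Sox18 was 1.38 and 0.963 FPKM, the lower values of their group for both genes. The same replicates held the lower values of Sox9, Sox10 and Sox17 and of the summed satellite glia and endothelial genes, but the higher values of Sox4 and Sox11. The part of the immediate early and heat shock response in these values was not tested.

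**Figure D4:**
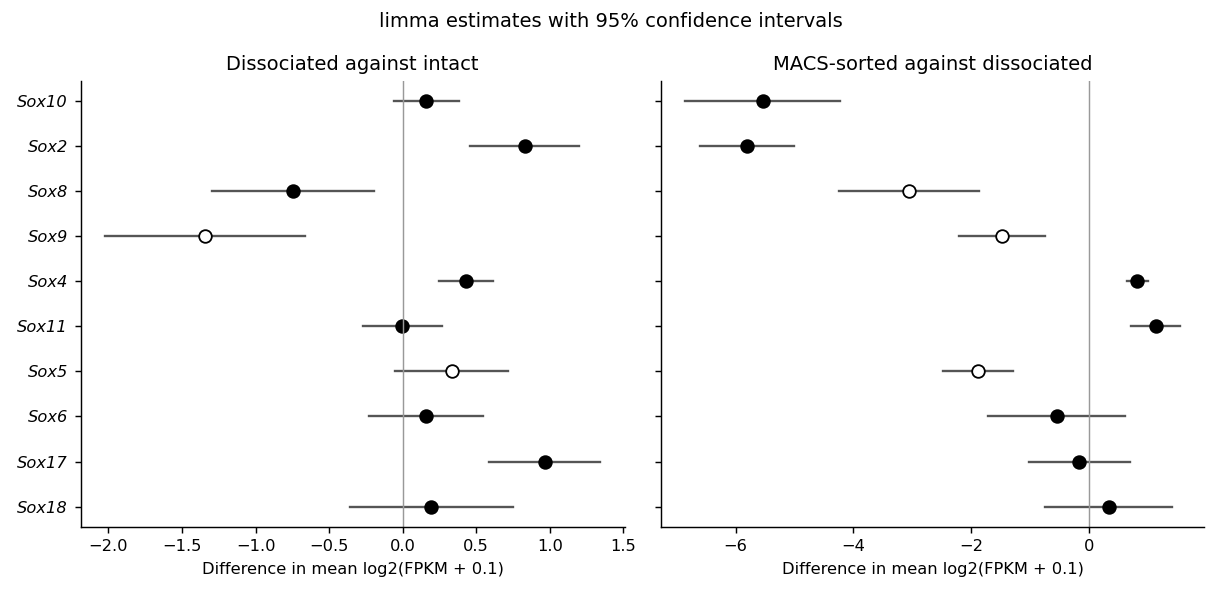
Points are limma estimates of the difference in mean log2(FPKM + 0.1) and lines their 95% confidence intervals, for dissociated against intact (left) and MACS-sorted against dissociated DRG (right), on separate scales; open points come from the fit without a filter on low FPKM. On the right, Sox10 and Sox2 lie at −5.54 and −5.81 and Sox4 and Sox11 at 0.83 and 1.14, while the lines of Sox6, Sox17 and Sox18 cross 0.

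MACS-sorted against intact DRG joins both steps and shares its samples with the other comparisons. Of the 8 members tested, 1 was called higher (Sox4) and 1 lower (Sox10), where 7.54% and 10.7% of genes were. By the adjusted p alone, 2 were higher (Sox4, 2.41-fold, and Sox11, 2.31-fold) and 3 lower (Sox10 to 3.31%, Sox2 to 1.19% and Sox8 to 5.44% of the intact level), against 14.1% and 20.6%. In the fit without a filter, in which 9.80% and 20.7% of genes were higher and lower, Sox5 was lower too, at 21.6% of the intact mean, and Sox9 at 4.21% (adjusted p = 0.0013 and 4.1e-04 from limma). The groups did not overlap for any of these genes, as for 15.6% and 21.9% of genes tested. Sox17, at 210% of the intact mean, did not pass the test (log2-fold change 0.81, adjusted p = 0.16 from limma), nor did Sox18 at 178% (0.54, adjusted p = 0.39). Both passed without MACS-sorted replicate 2, the sample with the fewest endothelial transcripts (log2-fold change 1.20, adjusted p = 0.017, and 0.97, adjusted p = 0.044). Sox6, at 98.0% of the intact mean, had a log2-fold change of −0.39 (adjusted p = 0.61), which was 0.47 after quantile normalization.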

How the data were processed

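PolyA-selected RNA of 4 samples per group was sequenced, and the authors aligned reads to mm10 with TopHat2 and estimated expression per annotated gene with Cufflinks 2.1.1. FPKM of 24490 genes in each sample were deposited, and read counts were not used here. Columns were mapped to samples by their labels. Gene starts, which count from 0 in the file, are printed counting from 1.

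Pairs of groups (8 samples) were fitted in limma 3.58.1 (R 4.3.3), with a trend of the variance with intensity, on log2(FPKM + 0.1) of the genes that averaged 1 FPKM or more. P-values were two-sided and adjusted by Benjamini-Hochberg over all genes tested. The thresholds for a call are those of the study's methods, with limma in place of CuffDiff, which needs aligned reads. Within-sample ratios used exact permutation tests (SciPy 1.17.1). Errors are SD over the samples of a group, counted as labelled.

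Depth was inferred from the steps between low FPKM values, taking fragments to be 150 bases long, and no interval was drawn from it.

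Text names the 10 members, the remaining Sox genes, genes of marker lists, and for each member averaging 1 FPKM or more the 3 genes most correlated with it. Members and lists were chosen with earlier results of these data known. Some genes of the marker lists enter the counts but are not reported here by name. Replicate numbers did not pair the samples. Data were simulated for 12163 genes, with the means and spread of the dissociated samples in both groups. Genes to be changed were drawn only from those well above the filter. Of 200 genes changed by 1 on the log2 scale, 96.5% were called correctly, and 0 of 11963 others were called. Whether these shares hold for members at low FPKM or with a wider spread in MACS-sorted than in dissociated samples was not tested. Alternatives covered pseudocounts, filters, scaling, a replicate block, a fit over all samples, the FPKM limit and leaving out each sample. Leaving out samples without a filter, and from the medians of gene lists, was added after the data were seen.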

Additional observations from a re-analysis of the deposited data

Results flagged for a closer look

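Of the 30 sets of 4 samples (10 genes in 3 groups), 3 held a sample set apart from the others by Dixon's test at the 95% level, which chance does in about 1 in 20. All 3 were MACS-sorted samples at low levels. Sox10 was 2.32 FPKM in replicate 4, where the remaining replicates had 0.149 to 0.361 FPKM. Sox2 was 0.178 FPKM in the same replicate, against 0 to 0.0251 FPKM. Sox9 was 0.128 FPKM in replicate 1, against 0 to 0.0144 FPKM, an estimated 7 fragments against at most 1.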

How the results depend on the processing

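Of the alternative values of members' log2-fold changes, 444 kept their direction and their side of the threshold, 12 reversed, 6 newly passed and 4 no longer passed. With MACS-sorted against dissociated DRG, Sox6 was 0.092 and Sox17 0.40 after quantile normalization. With 1 sample left out, Sox17 was −0.44 to 0.23, positive without MACS-sorted replicate 2, and Sox18 −0.054 to 0.78, negative without replicate 4. With dissociated against intact DRG, Sox11 was 0.17 after quantile normalization, −0.055 to 0.059 with 1 sample left out and 0.020 with dissociated replicates 1 and 2 averaged. With MACS-sorted against intact DRG, Sox6 was 0.47 after quantile normalization and −0.46 to 0.090 with 1 sample left out, positive without MACS-sorted replicate 2. Ratios reversed with a pseudocount of 1: Sox2 to Sox10 1.05 (MACS-sorted against dissociated), Sox5 to Sox10 −0.011, Sox5 to pan-neuronal genes −0.13 and Sox17 to endothelial genes −0.21 (dissociated against intact), and Sox18 to endothelial genes −0.0096 (MACS-sorted against intact). With that pseudocount 30 of the 45 ratios passed after adjustment, 28 of them in their former direction, and with 0.1 none passed. Those that passed all stood at the smallest exact p possible, so passing turned on how many ratios reached it.

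Counts of members at adjusted p under 0.05 depended on the filter by construction. With a minimum of 5 FPKM, MACS-sorted DRG had 1 higher and 1 lower against dissociated and 1 and 1 against intact DRG, and without a filter 5 were lower in each. Against intact DRG, 4 were higher after quantile normalization, and 2 to 4 with 1 sample left out. Dissociated against intact DRG had 1 higher in the fit over all 12 samples, 1 lower without a filter and 1 lower (Sox8, adjusted p = 0.038 from limma) with a replicate block. Same-numbered samples correlated at −0.14 to 0.07, so that block has no pairing behind it. With a limit of 1 FPKM for a call, 2352, 665 and 2206 genes were called lower in the 3 comparisons instead of 1505, 342 and 1313. The 342 became 187 to 334 with 1 sample left out, and 224, 203 and 187 without dissociated replicate 1, 3 or 4. For MACS-sorted against dissociated DRG, calls split into 981 higher and 1505 lower as deposited and 1387 and 1281 after quantile normalization, where the median log2-fold change of all genes moved from −0.04 to 0.10. Low FPKM limits Sox2, Sox5, Sox8 and Sox9 in MACS-sorted samples, where a few fragments set each value.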

Other observations

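Other Sox genes of the table gave further values. Sox12, the third SoxC gene, was 3.62 to 5.34 FPKM over the 12 samples and did not pass the test with sorting (log2-fold change 0.26, adjusted p = 0.076 from limma), unlike Sox4 and Sox11, although a difference between these genes was not tested. Sox13, the third SoxD gene, fell with sorting to 36.4% of the dissociated level (log2-fold change −1.53, standard error 0.39, adjusted p = 0.0090). Sox3, a relative of Sox2, was 0.470 ± 0.116 FPKM in dissociated and 0.0160 ± 0.0185 FPKM in MACS-sorted DRG (SD, n = 4 each) and fell in the fit without a filter (adjusted p = 5.9e-05 from limma). Sox7, the third SoxF gene, was at 60.5% of the dissociated level and did not pass (adjusted p = 0.17 without a filter). Sry, Sox14 and Sox15 were listed at 0 in all samples.

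For the members with a mean of at least 1 FPKM, the genes whose log2(FPKM + 0.1) was most like theirs were found among 12283 genes by Pearson's r over the 12 samples, which share 3 groups and therefore carry the group differences in every r. Sox10 was most like Rasa3, Cspg4 and Postn (r = 0.998, 0.997 and 0.997), Sox2 like Atp1b2, Ugt1a6a and Arhgef26 (0.998, 0.997 and 0.997) and Sox8 like C1s1, Plekhf1 and Rab34 (0.997, 0.996 and 0.995). Sox4 was most like Sema4d, a semaphorin gene, Eif4enif1 and Lrrc8d (0.982, 0.972 and 0.967), and Sox11 like Pola2, Tmem154 and Nxpe2 (0.97 for each). Sox6 was most like Ppp2r1b, Col18a1 and Gpcpd1 (0.961, 0.959 and 0.946). Sox17 was most like Abcb1a, Mmrn2 and Cldn5 (0.954, 0.950 and 0.942), of which Abcb1a encodes an efflux pump of barrier endothelium and Cldn5 a protein of its tight junctions, and Sox18 like Arhgap11a, Lmo2 and Lbr (0.919, 0.888 and 0.884).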
